A study of Mus musculus with 24 samples.

Results

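The genes described here code for the subunits and assembly factors of the mitochondrial respiratory chain and ATP synthase in mouse macrophages. Members were protein-coding genes whose symbols start with Nduf, Uqcr, Cox4i, Cox5, Cox6, Cox7, Cox8, Atp5, mt-Nd, mt-Co, mt-Cytb or mt-Atp, with a mean of at least 1 CPM (a count scaled to the usual common library total) over 24 RNA-seq libraries. Of 52636 genes in the tables, 102 matched by symbol and 91 were members, of which 81 are coded in the nucleus and 10 in the mitochondrial genome. The symbol rule used no measured response. Macrophages were grown from mouse bone marrow with 50 ng/ml of M-CSF, replated on day 5 and harvested 2 days later. The labels speak of 3 individual mice, each an independent replicate, and do not say whether treated and untreated libraries come from the same mice or whether genotypes share mice or litters. Cells were treated for 8 h with R837 (imiquimod, an agonist of Toll-like receptor 7) or left untreated. There were 4 genotypes, each with 3 R837 and 3 untreated libraries: TBK1-WT IKKe knockout, TBK1-cKD control, TBK1-cKD IKKe knockout and, as the comparison group, TBK1-WT control. The series description calls cKD a conditional knockout of TBK1, the labels write each control as a delta control without saying what was deleted in it, and no source used here names the Cre driver. Every record, knockouts included, gives its mice as wild-type C57BL/6N. TBK1 and IKKe are related kinases of innate immune signalling.

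The respiratory chain passes electrons from NADH (complex I) and succinate (complex II) through ubiquinone, complex III and cytochrome c to oxygen at complex IV, and ATP synthase uses the resulting proton gradient. Most subunits are coded in the nucleus and imported, while a core of complexes I, III, IV and ATP synthase is coded by mitochondrial DNA, transcribed by the mitochondrial polymerase as long RNAs and cut into messages. In macrophages, signalling through Toll-like receptors is known to shift energy metabolism between oxidative phosphorylation and glycolysis.

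Libraries held 19727746 to 41323219 counts on genes. The lowest, TBK1-cKD control R837 replicate 2, had only 14226 genes with a count, against 17519 to 19804 in the other libraries. Among R837 libraries of that genotype it had the highest Cox6a2, Uqcrq, Ndufaf3, Atp5o and Ndufb4. It also had the lowest Cox7c, Ndufaf7, Atp5s and Ndufaf2, so the changes of these genes there rest in part on it. Macrophage markers (Csf1r, Adgre1, Cd68, Itgam, Fcgr1, Mertk, Lyz2 and Cd14) were detected in all 24 libraries. Their summed level was 24717 to 32523 CPM in R837 and 18210 to 25805 CPM in untreated libraries. Untreated Ikbke RNA, which codes for IKKe, was 35.1 ± 0.713 CPM in TBK1-WT IKKe knockout and 59.5 ± 0.452 CPM in TBK1-WT control (SD, n = 3 each). It was 79.6 ± 2.41 CPM in the untreated libraries labelled TBK1-cKD IKKe knockout and 73.8 ± 2.29 CPM in TBK1-cKD control, so Ikbke was not lower in the libraries with that label. After R837, those libraries had 77.7, 82.7 and 259 CPM of Ikbke, against 240, 239 and 248 CPM in TBK1-cKD control. TBK1-WT control had 406, 220 and 233 CPM after R837. Untreated Tbk1 was 89.0 ± 1.47 CPM in libraries labelled TBK1-cKD IKKe knockout, 74.6 ± 1.55 CPM in TBK1-cKD control and 102 ± 1.88 CPM in TBK1-WT control. After R837, Tbk1 was 123 ± 11.6 CPM in libraries labelled TBK1-cKD IKKe knockout, 101 ± 7.12 CPM in TBK1-cKD control, 120.0 ± 4.71 CPM in TBK1-WT IKKe knockout and 130.0 ± 16.2 CPM in TBK1-WT control. The deleted parts of both genes are not given, and reads outside a deleted part check nothing. The RNAs Malat1, Neat1 and Xist, which stay in the nucleus, split the libraries by their mean log2 CPM. It was 8.95 to 9.47 in 14 libraries, which are all 12 untreated ones, TBK1-WT control R837 replicate 1 and, in the set labelled TBK1-cKD IKKe knockout, R837 replicate 3. It was 5.24 to 5.63 in the other 10 R837 libraries. The R837 libraries with 406 and 259 CPM of Ikbke are those of high nuclear RNA level.

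Per kilobase of exon, the highest nuclear coded members over the 24 libraries were Cox4i1 at 426 and Atp5b at 396 CPM per kilobase. Cox4i1 codes for a structural subunit of complex IV and Atp5b for the catalytic beta subunit of ATP synthase. Next came Atp5a1 (245), Atp5g3 (232), Atp5e (230.1), Cox6b1 (205), Cox8a (198), Cox6a1 (179), Cox5a (129.5) and Uqcr10 (125), all in CPM per kilobase. Where complex IV has alternative subunits, the widely expressed form was the abundant one. Cox4i1 averaged 326 CPM and Cox4i2 0.197 CPM, Cox6a1 102 CPM and Cox6a2 1.81 CPM, and Cox6b1 126 CPM and Cox6b2 0.464 CPM. Cox7a2 (73.2 CPM) and Cox7a2l (75.5 CPM), of which the product of Cox7a2l joins complexes III and IV, stood above the heart and muscle form Cox7a1 (2.90 CPM). Cox8a averaged 108 CPM while Cox8b, Cox8c and Cox7b2 had no count in any library. Ndufa4, a complex IV subunit despite its name, averaged 55.2 CPM and Ndufa4l2 0.0901 CPM. Just above the limit of 1 CPM were Cox7c (1.23), Ndufs5 (1.43), Ndufb4 (1.58) and Cox6a2 (1.81). Just below it were Cox6b2 (0.464), mt-Atp8 (0.248), mt-Nd3 and Cox4i2 (0.197 each) and mt-Nd4l (0.100), followed by Ndufa4l2, Atp5l (0.0397) and Atp5g2 (0.00709). All 91 members passed the filter on low counts.

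Levels of the mitochondrial coded members spread widely. Mean CPM was 1560 for mt-Cytb (cytochrome b of complex III), 1485 for mt-Nd1, 862 for mt-Co1 (the catalytic subunit of complex IV), 843 for mt-Nd5, 603 for mt-Nd2 and 536 for mt-Nd4, the mt-Nd genes coding for complex I subunits. It was 15.5 for mt-Nd6, the complex I subunit coded on the other strand, and only 4.70 for mt-Co3, 2.56 for mt-Co2 and 2.49 for mt-Atp6. The low genes share nearly all their sequence with annotated copies in a nuclear stretch of mitochondrial DNA on chromosome 1. Of all 50-base windows, the read length used, 100% of mt-Co2, 99.9% of mt-Co3, 99.5% of mt-Atp6, 98.8% of mt-Nd4l and 98.0% of mt-Nd3 also lie in another gene's transcript. That share was 62.2% for mt-Nd4, 51.1% for mt-Co1, 8.19% for mt-Nd2, 7.61% for mt-Nd5, and 0% for mt-Cytb, mt-Nd1 and mt-Nd6. For mt-Atp8, at 0.248 CPM, the share was 0%, but only annotated transcripts were searched, so a copy without annotation would be missed. In the mitochondrial genome mt-Atp8 lies between mt-Co2 and mt-Atp6. On chromosome 1 the copy of mt-Atp6 ends at 24614651 and that of mt-Co2 starts at 24614885. Whether the bases between them match mt-Atp8 was not tested. The copies themselves had few counts: Gm28437, the copy of mt-Co3 at chr1:24613189-24613971 (GRCm38, a pseudogene), had 29 to 129 counts per library and Gm28661, the copy of mt-Co2, 5 to 17. The aligned bases were identical over 783 bases for mt-Co3, 681 for mt-Co2, 678 for mt-Atp6 and 876 for mt-Nd4. The start of mt-Co3 and of its copy, from GRCm38, is shown because it carries the identity of both; no base is in capitals since none differs.
mt-Co3 (chrM:8607-8666, + strand): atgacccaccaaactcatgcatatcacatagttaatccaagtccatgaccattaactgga
Gm28437 (chr1:24613912-24613971, - strand): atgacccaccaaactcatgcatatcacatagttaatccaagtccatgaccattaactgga
How reads with several equally good places were counted is not stated in any source used here. The values of mt-Co2, mt-Co3 and mt-Atp6 are therefore uncertain, as are those of mt-Co1 and mt-Nd4 in part, and a sum over mitochondrial members leaves out an unknown share. Both mitochondrial ribosomal RNAs were also near 0, at 1 to 13 counts of mt-Rnr1 and 1 to 11 of mt-Rnr2 per library. Nuclear coded genes share windows with copies too. The share was 36.7% for Atp5g2 and 8.7% for Atp5l, both below the CPM limit, and over 10% for 12 of the 81 nuclear coded members. The low values of Atp5g2 and Atp5l are therefore uncertain as well.

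**Figure D1:**
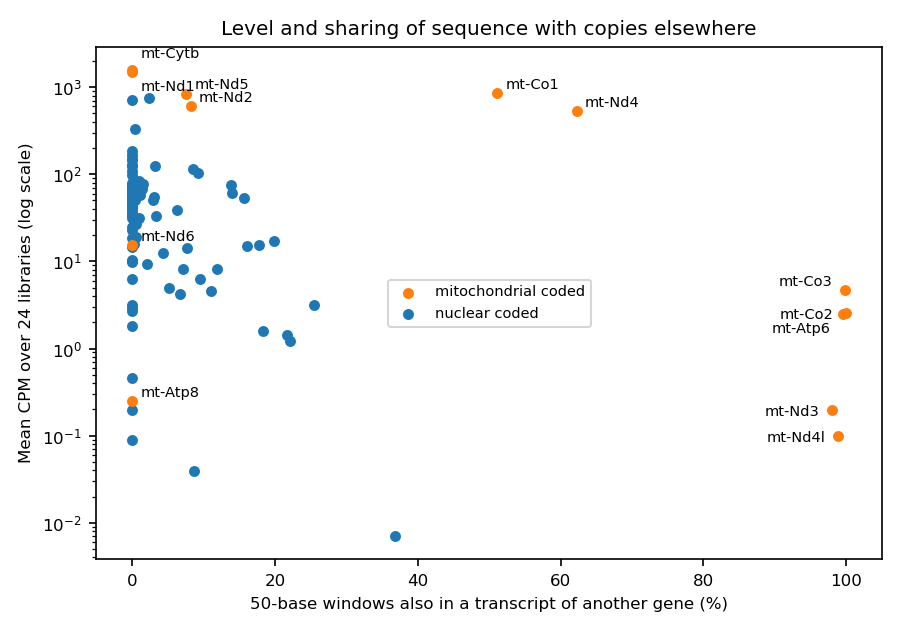
Mean CPM over 24 libraries (vertical, log scale) against the percentage of 50-base windows that also occur in a transcript of another gene (horizontal), for genes matched by the symbol rule that had a count, mitochondrial coded in orange and nuclear coded in blue. The 5 mitochondrial genes at 98.0% or more lie at 4.70 CPM or less. The gene mt-Atp8 is low with no window in an annotated transcript of another gene, and copies without annotation were not searched.

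After R837, most nuclear coded members were higher than in untreated cells in 3 genotypes, and 43 of 81 in libraries labelled TBK1-cKD IKKe knockout, where with library totals alone as the scaling the median turned to -0.09. By edgeR's quasi-likelihood test at an adjusted p below 0.05 (Benjamini-Hochberg over 14681 genes), 56 of 81 were higher and 3 lower in TBK1-WT control, where 30.6% of all genes tested were higher and 32% lower. In TBK1-WT IKKe knockout 63 were higher and 4 lower, against 32.4% and 37.8% of all genes (70.2% in either direction). In TBK1-cKD control 65 were higher and 5 lower, against 31.6% and 37.5% of all genes. In libraries labelled TBK1-cKD IKKe knockout 43 were higher and 5 lower, against 31.6% and 34.8% of all genes. The median log2 change of the 81 was 0.42, 0.51, 0.50 and 0.30 in that order of genotypes, while the median over all genes was -0.04, -0.07, -0.08 and -0.07. The 4 responses share no library. In all 4 of them 41 of the 81 were higher (50.6%, against 23% of all genes) and 3 were lower (3.7%, against 25.3%). In bulk RNA, less RNA per cell and fewer cells of a kind cannot be told apart.

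These changes moved with the nuclear RNA level of the libraries. The summed TMM-scaled CPM of the 81 genes (TMM is edgeR's scaling between libraries) was 6730 to 7452 in the 10 R837 libraries of low nuclear RNA level and 4470 to 4953 in the 14 of high level, with no overlap. The 2 R837 libraries of high level had 4940 and 4953, just above the highest untreated library at 4863. Within R837-treated TBK1-WT control, the mean log2 level of replicates 2 and 3 was above that of replicate 1 for 76 of the 81 genes, by a median of 0.49. In R837 libraries labelled TBK1-cKD IKKe knockout, replicates 1 and 2 were above replicate 3 for 75 of 81, by a median of 0.44. Over all genes tested those medians were -0.00 and 0.01. When only the 14 libraries of high level were fitted, 27 nuclear members were higher and 7 lower with R837 in TBK1-WT control (median 0.08), and 22 higher and 15 lower in libraries labelled TBK1-cKD IKKe knockout (median 0.05), each with 1 R837 library whose spread was taken from the other groups. With the level as a term in the fit, the counts were 28 higher and 5 lower in TBK1-WT control, 12 and 8 in TBK1-WT IKKe knockout, 14 and 11 in TBK1-cKD control, and 16 and 15 in libraries labelled TBK1-cKD IKKe knockout. TBK1-cKD control and TBK1-WT IKKe knockout have no R837 library of high level, so there treatment and level cannot be told apart within the genotype. For them the term takes the effect of the level from the other genotypes. Without R837 replicate 1, the count higher in TBK1-WT control was 69, and without R837 replicate 3 that in libraries labelled TBK1-cKD IKKe knockout was 57. What sets the level was not tested.

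**Figure D2:**
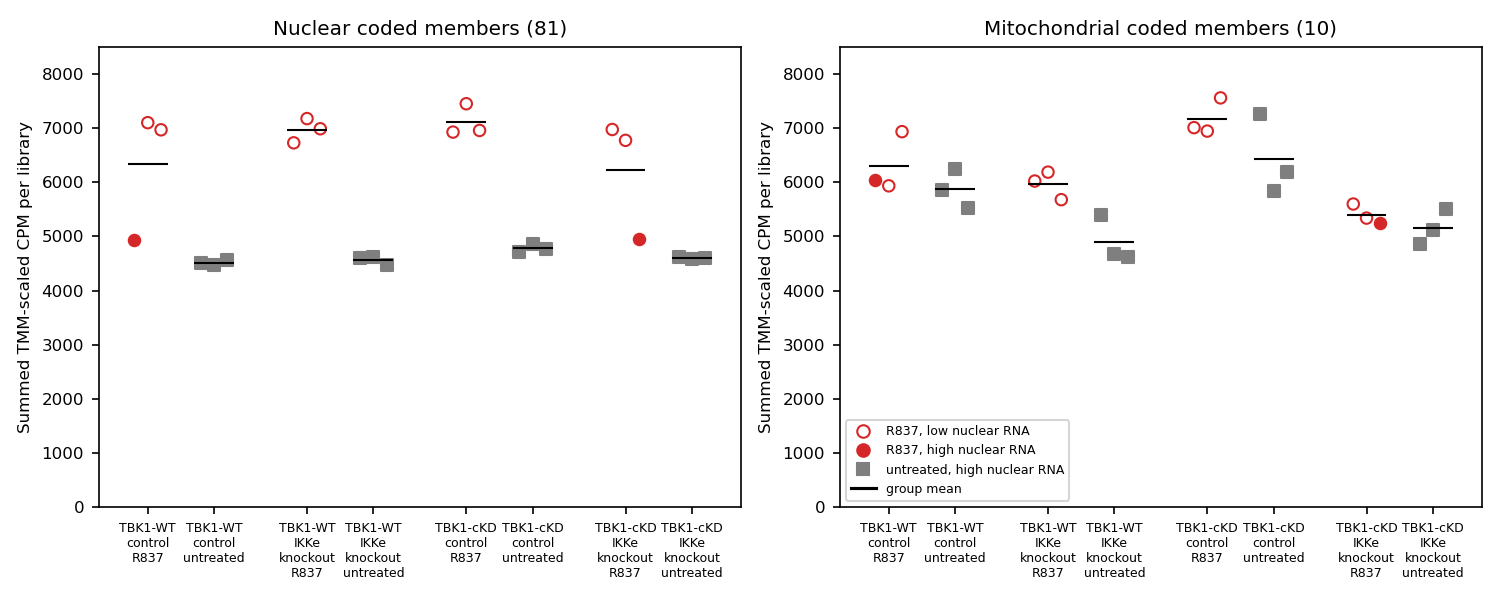
Summed TMM-scaled CPM of the 81 nuclear coded members (left) and the 10 mitochondrial coded members (right) in each of the 24 libraries, with R837 as red circles, untreated as gray squares, filled symbols for a high nuclear RNA level and lines at group means. Open circles lie at 6730 to 7452 on the left, and the 2 filled circles at 4940 and 4953 lie beside the untreated squares.

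**Figure D3:**
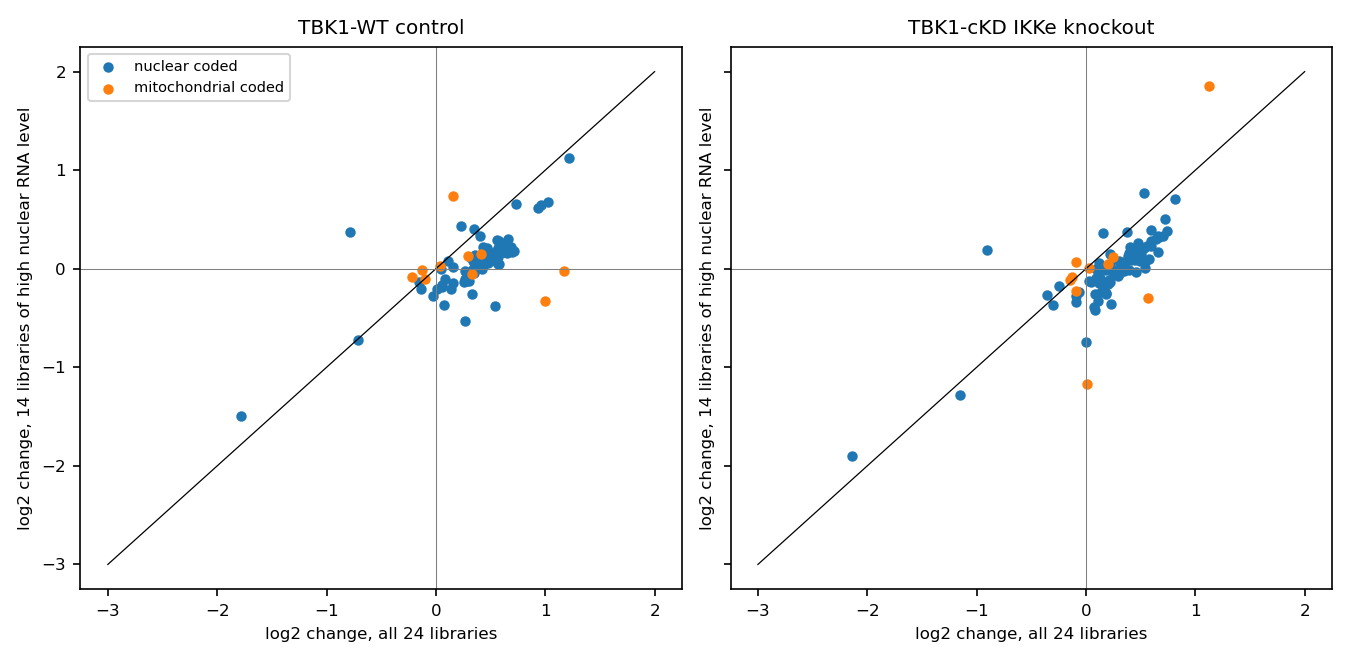
The log2 change of each member with R837 over untreated, from all 24 libraries (horizontal) and from the 14 libraries of high nuclear RNA level (vertical), in the genotypes with an R837 library of high level: TBK1-WT control and libraries labelled TBK1-cKD IKKe knockout. Most nuclear coded members (blue) lie below the line of equal change, with a median of 0.08 against 0.42 in TBK1-WT control, while Ndufaf7 at the lower left stays near the line.

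The scaling between libraries also bears on these counts. With library totals alone and no TMM factors, the median over all genes was shifted to -0.31, -0.38, -0.37 and -0.45 in the 4 responses, and of all calls 29.2%, 27.8%, 28% and 25.1% were higher, against 48.9%, 46.1%, 45.8% and 47.6% with TMM. The nuclear medians were then 0.15, 0.20, 0.21 and -0.09. Relative to the median of all genes they stood at 0.46, 0.57, 0.58 and 0.36 with totals and at 0.46, 0.57, 0.58 and 0.37 with TMM. Exon length is a further property that goes with membership: 72 of the 81 have at most 2068 bases of exon, and in TBK1-WT control their median change was 0.42, against 0.16 for all tested genes of that length.

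**Figure D4:**
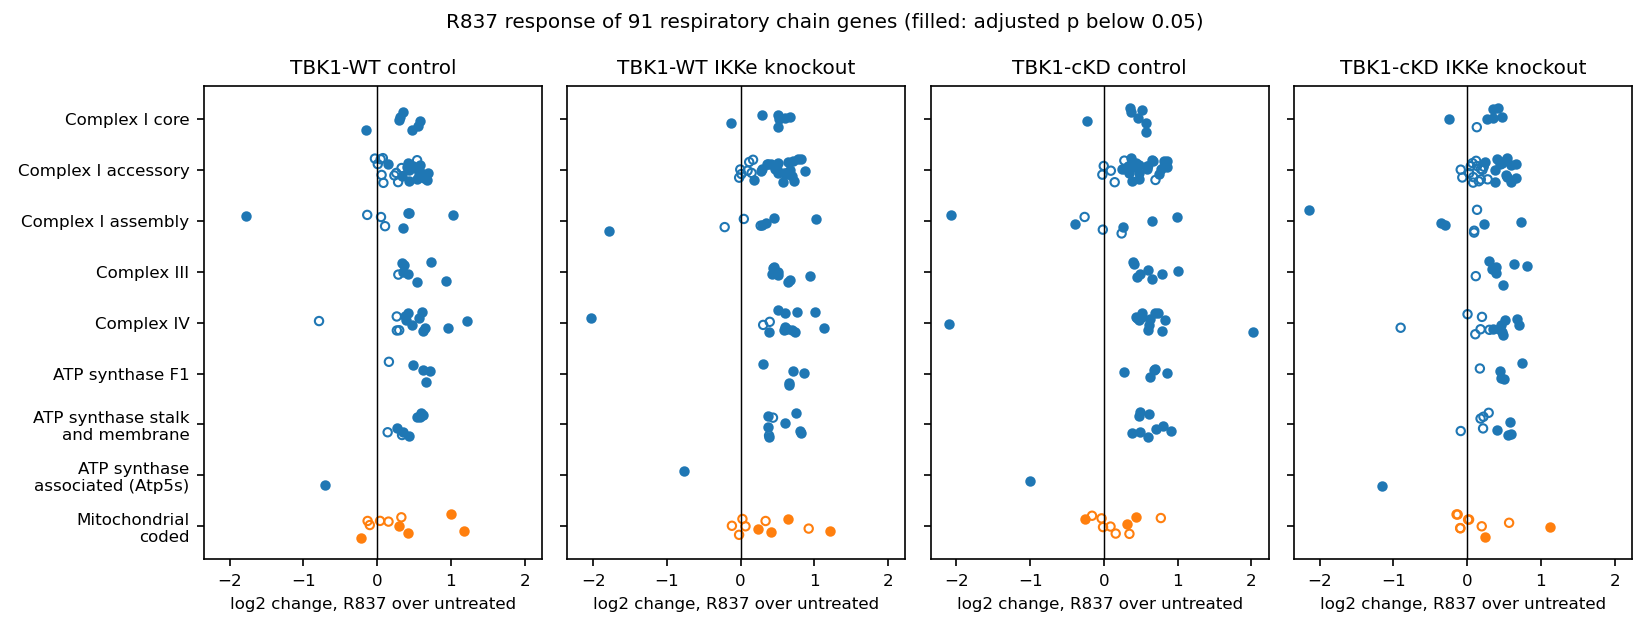
The log2 change of each of the 91 members, R837 over untreated (horizontal), by role (vertical) in the 4 genotypes, with filled symbols for an adjusted p below 0.05 and mitochondrial coded members in orange. Nuclear coded groups lie mostly between 0 and 1 apart from single falls such as Ndufaf7 (-1.79 in TBK1-WT control), and the mitochondrial coded group straddles 0; the right panel shows libraries labelled TBK1-cKD IKKe knockout.

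Counts by complex, here and below, come from the fit without the nuclear RNA level. They are to be read against 30.6%, 32.4%, 31.6% and 31.6% of all genes higher in the 4 responses. Complex I, which oxidises NADH, has 7 nuclear coded core subunits. Of these, 6, 6, 6 and 5 were higher with R837 in TBK1-WT control, TBK1-WT IKKe knockout, TBK1-cKD control and libraries labelled TBK1-cKD IKKe knockout. The exception was Ndufs1, the large iron-sulfur subunit, which was lower in all 4. It had 77.8, 75.3 and 75.6 TMM-scaled CPM in R837-treated TBK1-WT control, against 88.9, 86.0 and 79.7 untreated. All 3 treated libraries lay below all 3 untreated ones, by a small step (log2 change -0.16 ± 0.05 (SE), edgeR adjusted p = 0.0169). Its log2 changes in the other genotypes were -0.13, -0.23 and -0.24. Of 29 accessory subunits, which surround the core, 18, 22, 21 and 13 were higher and none lower in the 4 responses by this test, with medians of 0.43, 0.49, 0.47 and 0.25. Ndufa11, a membrane-arm subunit, had 44.3, 46.1 and 45.2 CPM with R837 and 26.2, 24.9 and 22.6 CPM untreated in TBK1-WT IKKe knockout, a log2 change of 0.88 ± 0.14 (SE), edgeR adjusted p = 1.20e-05. No treated library overlapped an untreated one there, but the treated ones were all of low nuclear RNA level and the untreated ones all of high level. Treatment and level therefore cannot be told apart in that genotype. Within R837 libraries, Ndufa11 at low minus high level was 0.64 in TBK1-WT control and 0.46 in the set labelled TBK1-cKD IKKe knockout (log2). On the libraries of high level its R837 changes in those sets were 0.22 and 0.21. Ndufb4 was higher in TBK1-cKD control (0.86), but at 1.58 CPM it rests on 24 to 72 counts per library and shares 18.3% of its windows with copies.

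Of the 8 complex I assembly factors, which help build the complex without staying in it, 4, 4, 3 and 2 were higher with R837 and 1, 1, 2 and 3 lower in the 4 responses. With 30.6% to 32.4% of all genes higher and 32% to 37.8% lower, these counts lie near the background. Ndufaf7, a mitochondrial methyltransferase needed for complex I assembly, showed the largest fall of any member in 2 of them (TBK1-WT control and libraries labelled TBK1-cKD IKKe knockout) and in the others was second only to Cox7c. In TBK1-WT control it had 5.21, 3.98 and 3.42 CPM with R837, against 14.4, 14.4 and 15.3 CPM untreated. In TBK1-WT IKKe knockout it had 4.18, 4.13 and 3.34 CPM with R837 and 13.8, 13.3 and 13.1 CPM untreated. Treated libraries of every genotype lay far below untreated ones, whichever their nuclear RNA level. In TBK1-cKD control the values were 4.54, 2.00 and 3.82 CPM with R837 and 14.6, 15.8 and 14.7 CPM untreated, and in libraries labelled TBK1-cKD IKKe knockout 2.27, 2.81 and 3.32 and 12.8, 12.4 and 12.2 CPM. The log2 change was -1.79 ± 0.18 (SE), edgeR adjusted p = 1.61e-08 in TBK1-WT control and -1.79, -2.07 and -2.14 in the others. On the 14 libraries of high level it was -1.49 in TBK1-WT control and -1.90 in libraries labelled TBK1-cKD IKKe knockout, both called.

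Ndufaf3, which acts early in complex I assembly, was higher with R837 in all 4 genotypes. It had 19.9, 28.3 and 28.0 CPM in R837-treated TBK1-WT control, against 11.7, 12.1 and 13.6 CPM untreated, and 25.2, 22.9 and 19.0 CPM with R837 and 13.9, 13.9 and 12.7 CPM untreated in libraries labelled TBK1-cKD IKKe knockout. The treated library of high nuclear RNA level was the lowest of its 3 in both groups and still above every untreated one. The log2 change was 1.03 ± 0.15 (SE), edgeR adjusted p = 4.46e-06 in TBK1-WT control and 1.02, 0.999 and 0.72 in the others. With the level as a term it was 0.73, 0.61, 0.57 and 0.44, called each time. Ndufaf2, an assembly factor that is related to an accessory subunit, was lower in TBK1-cKD control (-0.40) and libraries labelled TBK1-cKD IKKe knockout (-0.30). Its value is uncertain, since another gene overlaps 65.7% of its exon bases and the library kit does not mark strand.

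All 8 nuclear coded complex III members were higher with R837 in TBK1-cKD control and TBK1-WT IKKe knockout, and 7 of 8 in TBK1-WT control and in libraries labelled TBK1-cKD IKKe knockout. The median log2 change was 0.54 in TBK1-cKD control, 0.51 in TBK1-WT IKKe knockout and 0.39 in each of the other two. Uqcrq, a small structural subunit, had 78.4, 109 and 106 CPM with R837 and 50.1, 50.0 and 53.0 CPM untreated in TBK1-WT control. The groups did not overlap, and the treated library of high nuclear RNA level was the lowest (log2 change 0.93 ± 0.14 (SE), edgeR adjusted p = 7.59e-06). In TBK1-cKD control it had 105, 148 and 96.0 CPM with R837 and 55.4, 62.2 and 56.6 CPM untreated, again with no overlap. Uqcrb, another small subunit, rose by 0.74 and 0.82 on the log2 scale in TBK1-WT control and libraries labelled TBK1-cKD IKKe knockout, at a mean of only 3.13 CPM and with 25.4% of its windows in copies.

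In complex IV, where electrons meet oxygen, 10, 11, 13 and 8 of 14 nuclear coded members were higher and 0, 1, 1 and 0 lower. Cox5a, a regulatory subunit, was among the clearest rises. It had 91.4, 123 and 127 CPM in R837-treated TBK1-WT control, against 58.2, 59.1 and 57.6 CPM untreated. In TBK1-WT IKKe knockout it had 112, 125 and 118 CPM with R837 and 58.4, 63.5 and 54.5 CPM untreated. The groups were far apart in both, with replicate 1 lowest among the treated libraries of TBK1-WT control. TBK1-cKD control had 112, 105 and 114 CPM with R837 and 62.2, 61.4 and 62.8 CPM untreated, and libraries labelled TBK1-cKD IKKe knockout 115, 113 and 78.1 and 60.05, 64.7 and 63.3 CPM. The log2 change was 0.96 ± 0.12 (SE), edgeR adjusted p = 4.57e-07 in TBK1-WT control, 1.01, 0.82 and 0.71 in the others, and 0.64 and 0.33 on the libraries of high level in TBK1-WT control and libraries labelled TBK1-cKD IKKe knockout. The widely expressed forms Cox4i1, Cox6a1, Cox6b1, Cox7a2 and Cox8a were higher in all 4 genotypes, by 0.57, 0.65, 0.47, 0.63 and 0.61 on the log2 scale in TBK1-WT control and by 0.47, 0.49, 0.45, 0.67 and 0.43 in libraries labelled TBK1-cKD IKKe knockout. On the libraries of high level the same 5 genes were at 0.12, 0.16, 0.21, 0.18 and 0.17 in TBK1-WT control, with Cox8a not called. In libraries labelled TBK1-cKD IKKe knockout they were then at 0.13, 0.083, 0.20, 0.33 and 0.15, with Cox6a1 and Cox8a not called.

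Cox6a2, known as the heart and muscle form of subunit VIa, responded unequally at a low level of 16 to 115 counts per library. It had 2.06, 2.30 and 2.23 CPM with R837 and 0.937, 0.898 and 0.989 CPM untreated in TBK1-WT control. It had 3.37, 4.66 and 2.76 CPM with R837 and 1.11, 0.582 and 0.854 CPM untreated in TBK1-cKD control. Treated libraries lay above untreated ones in both, and also in TBK1-WT IKKe knockout, with log2 changes of 1.22 ± 0.27 (SE), edgeR adjusted p = 0.000506 in TBK1-WT control, 1.14 for TBK1-WT IKKe knockout and 2.03 for TBK1-cKD control. Cox6a2 in libraries labelled TBK1-cKD IKKe knockout had 1.63, 2.41 and 0.982 CPM with R837 and 1.84, 1.41 and 1.68 CPM untreated. There the groups overlapped and the log2 change was 0.00 ± 0.27 (SE), edgeR adjusted p = 0.988. On the libraries of high level, with 1 R837 library, it was -0.75 (edgeR adjusted p = 0.0268), a called fall. Cox7c, a small structural subunit, was lower in TBK1-WT IKKe knockout (0.360, 0.393 and 0.391 CPM with R837 and 1.48, 1.66 and 1.60 CPM untreated; log2 change -2.03 ± 0.73 (SE), edgeR adjusted p = 0.0185) and in TBK1-cKD control (0.586, 0 and 0.644 and 1.93, 2.14 and 1.82 CPM; -2.10). The treated libraries of high nuclear RNA level, replicate 1 of TBK1-WT control at 2.08 CPM and replicate 3 labelled TBK1-cKD IKKe knockout at 1.82 CPM, were not low. With 22.1% of windows in copies and 0 to 87 counts, Cox7c is uncertain. Cox7a1 and Cox7a2l were called in fewer genotypes, Cox7a1 in TBK1-cKD control (0.61) and Cox7a2l in TBK1-cKD control (0.43) and TBK1-WT IKKe knockout (0.38). With the level as a term these turned to -0.20 for Cox7a1, and to -0.14 and -0.19 for Cox7a2l. Ndufa4 was higher in TBK1-cKD control (0.45) and TBK1-WT IKKe knockout (0.51), and with the level as a term it was at -0.11 and -0.050.

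ATP synthase joins a catalytic F1 head to a membrane part through stalks. Of 5 F1 members, 4, 5, 5 and 4 were higher, with medians of 0.63, 0.66, 0.68 and 0.46. Atp5b had 1097, 1073 and 759 CPM with R837 and 591, 582 and 582 CPM untreated in libraries labelled TBK1-cKD IKKe knockout. All treated libraries were above all untreated ones, with replicate 3, of high nuclear RNA level, the closest (log2 change 0.74 ± 0.11 (SE), edgeR adjusted p = 7.14e-06). Atp5a1, the alpha subunit, rose by 0.48, 0.66, 0.62 and 0.45 on the log2 scale. On the libraries of high level its change was 0.06 in TBK1-WT control and 0.08 in libraries labelled TBK1-cKD IKKe knockout, and neither was called. Of 9 stalk and membrane members 7, 7, 9 and 4 were higher and none lower. Atp5o, in the stalk that holds F1, rose by 0.92 on the log2 scale in TBK1-cKD control, where other annotated genes overlap 47.9% of its exon bases. Atp5s, described as a coupling factor of ATP synthase, fell. It had 2.57, 2.46 and 2.71 CPM in R837-treated TBK1-WT control, against 4.79, 3.76 and 4.09 CPM untreated, and 1.74, 1.73 and 1.502 CPM with R837 and 3.47, 3.57 and 3.97 CPM untreated in libraries labelled TBK1-cKD IKKe knockout. Groups did not overlap in either, and the library of high level did not stand apart. The log2 change was -0.71 ± 0.18 (SE), edgeR adjusted p = 0.00182 in TBK1-WT control and -0.77, -1.01 and -1.15 in the others.

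Counts of mitochondrial coded members called with R837 were small. With R837, 4, 4, 2 and 2 of 10 were higher and 1, 0, 1 and 0 lower in TBK1-WT control, TBK1-WT IKKe knockout, TBK1-cKD control and libraries labelled TBK1-cKD IKKe knockout, with medians of 0.23, 0.29, 0.13 and 0.02. Over all genes 30.6%, 32.4%, 31.6% and 31.6% were higher and 32%, 37.8%, 37.5% and 34.8% lower, and the difference between mitochondrial and nuclear coded members in these counts was not tested. Counts this small moved with single libraries: the 4 higher in TBK1-WT control became 2 without R837 replicate 2 and 1 without R837 replicate 3, and its 1 lower became 0 without R837 replicate 2 or untreated replicate 2. In libraries labelled TBK1-cKD IKKe knockout the 2 became 1 without replicate 1 or 2 of either treatment, and in TBK1-cKD control the 1 lower became 0 without R837 replicate 2 or untreated replicate 1. Over the 7 with more than 10 CPM the medians were 0.04, 0.07, -0.01 and 0.03.

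The gene mt-Nd1 was the only mitochondrial member called higher in all 4 genotypes. It had 1452, 1769.7 and 2006 CPM with R837 and 1299.9, 1387 and 1240.3 CPM untreated in TBK1-WT control. It had 1716, 1863 and 1605 CPM with R837 and 1226, 1048 and 1042 CPM untreated in TBK1-WT IKKe knockout. Treated libraries lay above untreated ones in both, by the wider gap in TBK1-WT IKKe knockout (log2 change 0.41 ± 0.11 (SE), edgeR adjusted p = 0.002 in TBK1-WT control and 0.64 ± 0.11 (SE), edgeR adjusted p = 1.90e-05 in TBK1-WT IKKe knockout). Cells of TBK1-cKD control had 1960.5, 1823 and 2105 CPM with R837 and 1621, 1325 and 1393 CPM untreated (0.44), and in libraries labelled TBK1-cKD IKKe knockout 1583, 1473 and 1323 and 1166, 1223 and 1299.8 CPM (0.25, edgeR adjusted p = 0.0453, and -0.14, not called, with library totals alone). This last call was lost without replicate 1 or 2 of either treatment (log2 change 0.19 to 0.24). With the level as a term the change was 0.35 in TBK1-WT IKKe knockout, which was called, and 0.21, 0.15 and 0.05 in TBK1-WT control, TBK1-cKD control and libraries labelled TBK1-cKD IKKe knockout, which were not.

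The gene mt-Co1 was higher in TBK1-WT control (852, 918 and 1089 CPM with R837 and 755, 834 and 737 CPM untreated; log2 change 0.30 ± 0.09 (SE), edgeR adjusted p = 0.00566), TBK1-cKD control (0.32) and TBK1-WT IKKe knockout (0.41). In libraries labelled TBK1-cKD IKKe knockout it changed by 0.20 ± 0.09 (SE), edgeR adjusted p = 0.0523, which was not called. By contrast mt-Nd5 was lower in TBK1-WT control (922, 718 and 862 CPM with R837 and 942, 1032 and 945 CPM untreated; -0.22 ± 0.09 (SE), edgeR adjusted p = 0.038) and TBK1-cKD control (-0.26). Its changes of -0.12 in TBK1-WT IKKe knockout and -0.09 in libraries labelled TBK1-cKD IKKe knockout were not called. For mt-Nd2 the changes ran from -0.14 to 0.07 and for mt-Nd4 from -0.13 to 0.03, none called. The messages mt-Nd1 and mt-Nd5 are both complex I subunits of the same coding strand, yet their changes in TBK1-WT control had opposite signs. Within R837-treated TBK1-WT control, log2 levels at low minus high nuclear RNA level were 0.23 for mt-Co1, 0.38 for mt-Nd1 and -0.23 for mt-Nd5. On the libraries of high level, the R837 changes in TBK1-WT control were 0.13, 0.15 and -0.08 in that order. With the level as a term, 0 mitochondrial coded members were called lower in TBK1-WT control. Cytochrome b, mt-Cytb, was called in TBK1-WT IKKe knockout only (0.24), with 1539.8, 1558 and 1445 CPM with R837 and 1465, 1222 and 1165 CPM untreated and 1 untreated library inside the treated range.

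The gene mt-Nd6 was far higher in 2 R837 libraries than in any other. It had 17.0, 17.0 and 42.3 CPM with R837 and 12.2, 10.6 and 12.3 CPM untreated in libraries labelled TBK1-cKD IKKe knockout (log2 change 1.12 ± 0.33 (SE), edgeR adjusted p = 0.00472), and the call was lost without R837 replicate 3 (0.54, edgeR adjusted p = 0.0934). It had 26.8, 11.1 and 14.7 CPM with R837 and 17.1, 17.1 and 13.4 CPM untreated in TBK1-WT control (log2 change 0.15, not called). The highest library of each set is its R837 library of high nuclear RNA level. Reads from the opposite strand cannot be told apart from mt-Nd6 in this kit. The uncertain genes mt-Co3 and mt-Atp6 went the other way. In TBK1-WT control mt-Co3 had 2.59, 9.26 and 7.84 CPM with R837 and 3.17, 3.45 and 3.10 CPM untreated (log2 change 0.998 ± 0.35 (SE), edgeR adjusted p = 0.0184), and mt-Atp6 1.47, 4.57 and 4.26 and 1.55, 1.30 and 1.65 CPM (1.17 ± 0.44 (SE), edgeR adjusted p = 0.0266). For both, treated replicate 1 lay within or below the untreated range. The call of mt-Co3 was also made in TBK1-WT IKKe knockout (1.21), and mt-Co2 changed by -0.10 to 0.34, called in none.

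**Figure D5:**
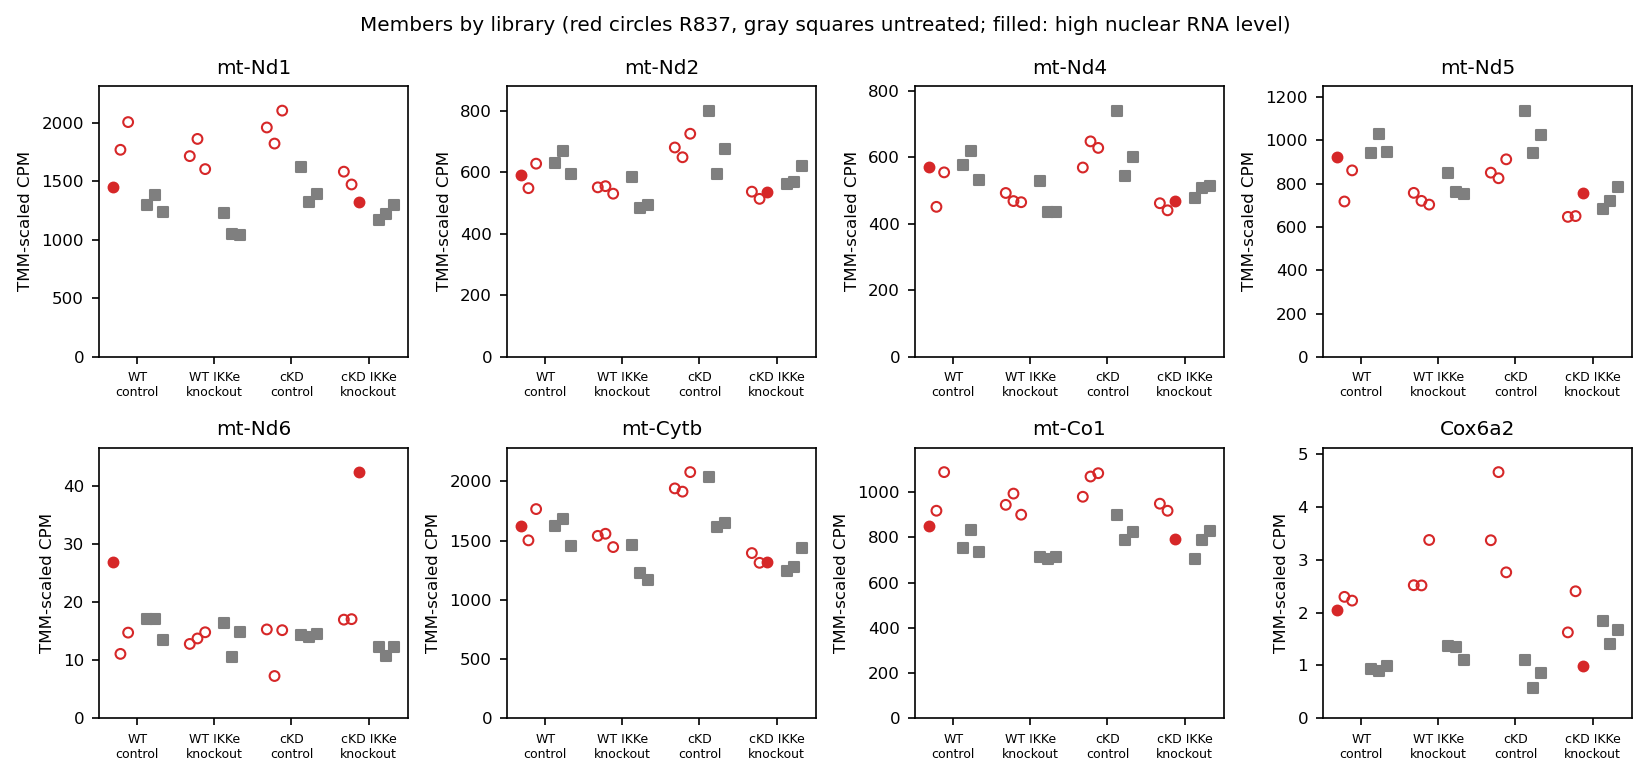
TMM-scaled CPM of the 7 mitochondrial coded members above 10 CPM and of Cox6a2 in each library, by genotype, with R837 as red circles to the left of untreated gray squares and filled symbols for a high nuclear RNA level. The 2 filled red circles of mt-Nd6, at 26.8 and 42.3 CPM, are the highest values of that gene, and the Cox6a2 values labelled cKD IKKe knockout overlap between treatments.

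Set against each other, nuclear coded RNA was higher relative to mitochondrial coded RNA with R837 in all 4 genotypes, by group means. Summed over the 10 members, mitochondrial RNA was 6305 ± 549.7 TMM-scaled CPM with R837 and 5873 ± 364 untreated in TBK1-WT control, and 5964 ± 260 and 4897 ± 428 in TBK1-WT IKKe knockout (SD, n = 3 each). It was 7172 ± 337 with R837 and 6429 ± 739 untreated in TBK1-cKD control, and 5396 ± 182 and 5157 ± 326 in libraries labelled TBK1-cKD IKKe knockout. The nuclear sum was 6337 ± 1212 with R837 and 4518 ± 48.2 untreated in TBK1-WT control, 6966 ± 225 and 4565 ± 80.1 in TBK1-WT IKKe knockout, 7113 ± 294 and 4783 ± 73.7 in TBK1-cKD control, and 6235 ± 1115 and 4608 ± 19.96 in libraries labelled TBK1-cKD IKKe knockout. The 2 treated groups of wide spread are those with a library of high nuclear RNA level. The log2 ratio of nuclear to mitochondrial sums was -0.01 ± 0.28 with R837 and -0.38 ± 0.10 untreated in TBK1-WT control, 0.22 ± 0.07 and -0.10 ± 0.11 in TBK1-WT IKKe knockout, -0.01 ± 0.11 and -0.42 ± 0.18 in TBK1-cKD control, and 0.19 ± 0.24 and -0.16 ± 0.09 in libraries labelled TBK1-cKD IKKe knockout. The differences were 0.37, 0.32, 0.41 and 0.35, or 1.29-, 1.25-, 1.33- and 1.28-fold, a description with no test. On the libraries of high level the difference was 0.09 in TBK1-WT control and 0.08 in libraries labelled TBK1-cKD IKKe knockout, each below the SD of the untreated libraries. This ratio does not depend on the scaling between libraries.

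Few members differed between genotypes. These comparisons share the TBK1-WT control libraries. For TBK1-WT IKKe knockout against TBK1-WT control, edgeR called 0 of 91 members untreated, where 0% of all genes were called, and 0 with R837, where 1.85% were called. At an unadjusted p below 0.05 there were 5 members untreated, all of them mitochondrial coded, and 1 with R837, also mitochondrial coded. Untreated, the median log2 difference was -0.22 over the 10 mitochondrial coded members and 0.02 over the 81 nuclear coded ones, with no member called, and DESeq2 called 0 in both. For TBK1-cKD control, edgeR called 0 untreated (5.05% of all genes called, 2.4% higher and 2.65% lower) and 0 with R837 (8.89%, 4.48% higher and 4.41% lower), with 0 and 16 members at an unadjusted p below 0.05. DESeq2 called 0 untreated and 2 with R837, and edgeR on only the compared groups called 11 untreated. In the untreated libraries labelled TBK1-cKD IKKe knockout, edgeR called 1 member, against 13.6% of all genes (8.52% higher and 5.1% lower). It was mt-Nd5, at 685, 722 and 785 CPM there and 942, 1032 and 945 CPM in TBK1-WT control, with no overlap and a log2 difference of -0.41 (edgeR adjusted p = 0.00275). That count became 2 without untreated replicate 3 of either group.

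With R837, 8 members were lower and none higher in libraries labelled TBK1-cKD IKKe knockout than in TBK1-WT control, where 15.5% of all genes were lower and 16.7% higher. They included Ndufs8, a core complex I subunit that carries iron-sulfur clusters, with 30.5, 32.1 and 22.7 CPM in libraries labelled TBK1-cKD IKKe knockout and 33.4, 43.5 and 45.8 CPM in TBK1-WT control (-0.52, edgeR adjusted p = 0.000655). In each group the library of high nuclear RNA level was the lowest, and the groups did not overlap. Ndufaf4, an assembly factor that works with Ndufaf3, had 7.19, 7.99 and 8.20 CPM and 11.7, 11.1 and 10.5 CPM in the same order (-0.51, adjusted p = 0.0027). Atp5s differed by -0.64. Among members outside the 3 of smallest p, Ndufaf7 differed by -0.59, Ndufb2 by -0.35, Ndufaf2 by -0.34, mt-Nd5 by -0.28 and mt-Cytb by -0.28. The 8 became 21 without R837 replicate 1 of TBK1-WT control and 4 without its replicate 3. On only the groups compared, 2 were called.

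The R837 response itself differed from that of TBK1-WT control for 2 members, both in libraries labelled TBK1-cKD IKKe knockout, where 17.3% of all genes differed (7.38% with a higher and 9.96% with a lower response). Ndufaf4 had 7.19, 7.99 and 8.20 CPM with R837 and 9.11, 10.2 and 10.6 CPM untreated in those libraries, against 11.7, 11.1 and 10.5 and 9.52, 8.63 and 8.05 CPM in TBK1-WT control. It was lower after treatment in libraries labelled TBK1-cKD IKKe knockout and higher after treatment in TBK1-WT control, with no overlap in either. The difference of log2 responses was -0.70 ± 0.17 (SE; edgeR adjusted p = 0.00657), and it was called without each replicate in turn (-0.77 to -0.65). For Cox6a2 the difference was -1.21 ± 0.38 (adjusted p = 0.0291), and that call was lost without any of 7 of the 12 libraries (adjusted p 0.0517 to 0.0773). For TBK1-WT IKKe knockout 0 members differed in response, where 0.245% of all genes did, and for TBK1-cKD control 0, where 0.879% did. At an unadjusted p below 0.05 these were 0 and 1 members, and DESeq2 called 0 in both.

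Other genes of oxidative phosphorylation were counted from lists, to be read against 30.6%, 32.4%, 31.6% and 31.6% of all genes called higher and 32%, 37.8%, 37.5% and 34.8% called lower. Several of these counts lie near those shares. Results of these lists, and of the lists in the next paragraph, come from the fit without the nuclear RNA level. Whether they move with that level, as the nuclear coded members did, was not tested. Of 8 complex II genes (succinate dehydrogenase and its assembly factors), 3, 4, 3 and 2 were higher and 0, 0, 0 and 2 lower with R837 in TBK1-WT control, TBK1-WT IKKe knockout, TBK1-cKD control and libraries labelled TBK1-cKD IKKe knockout. Sdhd, a membrane anchor, rose by 0.35, 0.57, 0.52 and 0.38 on the log2 scale, while the catalytic Sdha changed by -0.01, 0.07, 0.06 and 0.00 and was not called. Of 9 genes for cytochrome c, cytochrome c1 and complex III assembly, 4, 5, 5 and 5 were higher and 1, 0, 3 and 2 lower, and Cyc1 (cytochrome c1) rose by 0.78, 0.86, 0.72 and 0.69. Of 21 complex IV assembly factors tested, 11, 12, 12 and 11 were higher and 0, 1, 0 and 2 lower. Of 9 complex I assembly factors outside the symbol rule, 5, 3, 3 and 3 were higher and 2, 3, 3 and 4 lower. Of 6 genes for ATP synthase assembly and carriers of ADP, ATP or phosphate, 3, 4, 5 and 3 were higher and 0, 0, 1 and 1 lower. For 75 proteins of the mitochondrial ribosome, which translates the mitochondrial messages, 44, 52, 48 and 29 were higher and 4, 3, 4 and 7 lower, with medians of 0.30, 0.36, 0.35 and 0.20.

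Of 16 genes for mitochondrial transcription and genome maintenance, 1, 2, 0 and 0 were higher and 3, 6, 8 and 7 lower with R837 in the 4 responses, the lower ones near the all-gene shares of 32%, 37.8%, 37.5% and 34.8%, with medians of -0.14, -0.15, -0.09 and -0.19. Polg2, the accessory subunit of the mitochondrial DNA polymerase, changed by -0.58, -0.86, -0.78 and -1.56 and the helicase Twnk by -0.41, -0.43, -0.49 and -0.37, all called lower. Polrmt, the mitochondrial RNA polymerase, was called lower in 3 (-0.37 for TBK1-WT IKKe knockout, -0.43 for TBK1-cKD control and -0.38 for libraries labelled TBK1-cKD IKKe knockout) and was -0.06 in TBK1-WT control. Of 17 genes for mitochondrial RNA processing, 8, 10, 7 and 4 were higher and 0, 0, 0 and 4 lower. Of 11 regulators of mitochondrial biogenesis, 3, 2, 2 and 4 were higher and 4, 4, 3 and 3 lower. Within that list Esrra, a nuclear receptor for these genes, rose by 1.06, 1.01, 1.05 and 1.04, and Ppargc1a, its coactivator, fell by 3.31, 2.24, 2.57 and 2.70, all on the log2 scale and all called. Of 13 genes of ubiquinone synthesis, 4, 4, 5 and 3 were higher and 3, 3, 2 and 3 lower. Of the mitochondrial ribosomal RNAs 1 was tested and none called (edgeR).

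Lists for other cell types gave sums far below that of the macrophage markers, but some moved with treatment. Neutrophil markers summed to 20.2 to 185 CPM in R837 and 1.38 to 10.0 CPM in untreated libraries. Every R837 library thus lay above every untreated one, with 6 of 8 markers below a mean of 1 CPM. Lymphocyte markers went the other way, at 2.03 to 5.33 CPM in R837 and 6.91 to 18.7 CPM in untreated libraries, with 7 of 8 below 1 CPM. Dendritic cell markers reached 2.13 and 1.69 CPM at most in R837 and untreated libraries (7 of 7 below 1 CPM). Fibroblast or stromal markers reached 48.5 and 67.4 CPM, with only 1 of 5 below 1 CPM. Erythroid markers reached 0.147 and 0.0407 CPM. Their part in the results was not tested.

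Promoters of the nuclear coded members were compared with those of all genes for binding motifs of NRF1, ETS factors and YY1, factors known to act at genes of this kind. RefSeq windows from 250 bases before to 50 after a start (GRCm38.p6) matched 66 of 81 members and 27025 genes by symbol, and exact letters were searched on both strands. The NRF1 motif, the 10 letters in capitals in the first window printed here, was in windows of 6 members (9.09%), against 1.07% of all genes. The ETS motif CCGGAAGT was in 5 (7.58%, against 4.31%) and the YY1 motif AAGATGGCG in 8 (12.1%, against 1.64%). Any of the 3 was in 19 members (28.8%, against 6.76%), so no member window held more than 1 kind. The 27025 genes were not limited to those that passed the count filter, so they are not matched to the members in expression. The median log2 change with R837 in TBK1-WT control was 0.43 for the 19 members with a motif and 0.41 for the 47 without. Shown here are the 250 bases before the start of Ndufa11 and Atp5h, chosen after their values were seen as members that rose in TBK1-WT control and hold an NRF1 or an ETS motif, and of Ndufaf7, which fell and holds none of the 3; capitals mark the motif, and in Atp5h it is read on the opposite strand.
Ndufa11 (chr17:56717512-56717761, + strand): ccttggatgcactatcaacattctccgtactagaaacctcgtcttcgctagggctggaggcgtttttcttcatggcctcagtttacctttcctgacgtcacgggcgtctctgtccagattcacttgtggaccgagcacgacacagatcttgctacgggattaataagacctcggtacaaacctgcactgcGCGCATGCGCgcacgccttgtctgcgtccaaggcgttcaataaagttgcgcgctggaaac
Atp5h (chr11:115419920-115420169, - strand): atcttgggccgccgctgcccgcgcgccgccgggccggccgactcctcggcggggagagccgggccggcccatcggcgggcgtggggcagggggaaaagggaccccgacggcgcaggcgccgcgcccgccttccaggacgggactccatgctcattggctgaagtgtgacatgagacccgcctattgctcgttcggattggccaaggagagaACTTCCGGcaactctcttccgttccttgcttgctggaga
Ndufaf7 (chr17:78936885-78937134, + strand): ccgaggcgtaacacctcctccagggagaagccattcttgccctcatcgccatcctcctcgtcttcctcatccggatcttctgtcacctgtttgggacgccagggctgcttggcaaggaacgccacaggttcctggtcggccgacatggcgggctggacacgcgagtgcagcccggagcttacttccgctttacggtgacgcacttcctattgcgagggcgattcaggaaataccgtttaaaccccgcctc
A match in these letters is a description of the window and not a bound site. Atp5h, a subunit of the peripheral stalk, had 14.3, 21.98 and 20.02 CPM with R837 and 13.9, 13.7 and 14.1 CPM untreated in TBK1-WT control (log2 change 0.43 ± 0.14 (SE), edgeR adjusted p = 0.0105). There too the treated library of high nuclear RNA level was the lowest of the 3.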

How the data were processed

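The authors deposited 1 table of raw counts per gene (exonic reads) for each of 24 libraries. Reads were single-end of 50 bases from a kit that does not mark strand, per the labels' protocols, and GSNAP and GRCm38 are named in the submitters' processing notes. No source used here gives the counter or the annotation. Of the identifiers, 233 matched no symbol, with 0.019% of counts. Counts were tested in 1 fit over all libraries with a mean for each of 8 groups, by edgeR 4.0.16 quasi-likelihood in R 4.3.3 with TMM scaling, a filter on low counts (filterByExpr, minimum count 10, minimum total 15) and Benjamini-Hochberg adjustment at 0.05 over 14681 genes. The residual degrees of freedom were 16. Levels are TMM-scaled CPM. The fit was tested on simulated data, and DESeq2 1.42.0 and other scalings, filters, library sets and the nuclear RNA level as a term were alternatives. Scores over members, sums and ratios had no test. Named were all mitochondrial members, the 5 largest called nuclear rises and falls per genotype, the 3 of smallest adjusted p per genotype comparison and direction, the 10 highest per kilobase, complex IV isoforms and members beside the CPM limit; others were chosen after their values were seen. The members and lists were chosen with earlier results of these data known.

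Replicate numbers follow the order of the records and were not used to pair libraries; whether treated and untreated libraries share mice is not known here, and the fit treats them as independent. The split by nuclear RNA level was made at the widest gap in the mean log2(CPM + 0.5) of Malat1, Neat1 and Xist. Copies were found by exact matches of 50-base windows of GENCODE transcripts (GRCm38). The text counts differences by the adjusted p, so that a value given without a call did not pass it.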

Additional observations from a re-analysis of the deposited data

Results flagged for a closer look

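In 2 members the response to R837 differed between genotypes by a test of the difference itself. The log2 response of Ndufaf4 in libraries labelled TBK1-cKD IKKe knockout minus that in TBK1-WT control was -0.70 (edgeR adjusted p = 0.00657), with all 3 treated libraries below and all 3 above their untreated ones in those groups. For Cox6a2 the same difference was -1.21 (edgeR adjusted p = 0.0291). That call was lost without any of 7 of the 12 libraries, and the difference ranged from -1.58 to -0.93 with 1 library left out at a time. On the libraries of high nuclear RNA level, with 1 R837 library in each group, it was -1.87.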

How the results depend on the processing

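Of 103 called results of named members, 42 kept their call and direction under every setting tried. RLE scaling and TMM without mitochondrial genes changed none of them, and DESeq2 ended 1 call. No paired analysis was possible because the labels give no replicate numbers that could join the groups.

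With library totals alone, 33, 47 and 28 members were called in the responses of TBK1-WT control, TBK1-cKD control and libraries labelled TBK1-cKD IKKe knockout. With the nuclear RNA level fitted as a term the 4 responses gave 34, 22, 27 and 33, and on libraries of high level TBK1-WT control gave 35. For TBK1-cKD control against TBK1-WT control, untreated, the level term gave 6, libraries of high level 10 and only the groups compared 11. With R837 it gave 1 with no count filter, 2 with the level term and 2 with DESeq2. For libraries labelled TBK1-cKD IKKe knockout against TBK1-WT control, untreated, RLE scaling gave 3, totals 5, the level term 10, libraries of high level 17, only the groups compared 20 and DESeq2 4. With R837, totals gave 42, the level term 26 and only the groups compared 2. For their difference in response, totals gave 5, the level term 14 and libraries of high level 7, and for TBK1-cKD control the level term gave 1.

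Leaving out 1 library at a time gave 44 to 77, 62 to 68, 65 to 73 and 37 to 65 members in the 4 responses. It gave 1 to 2 untreated and 4 to 21 with R837 for libraries labelled TBK1-cKD IKKe knockout, 0 to 2 for TBK1-cKD control with R837, and 1 to 7 for the difference in response. The log2 nuclear to mitochondrial difference ranged over 0.23 to 0.51, 0.26 to 0.36, 0.31 to 0.49 and 0.28 to 0.49. It was 0.086 and 0.077 on libraries of high level. In TBK1-cKD control the log2 change with R837 ranged over 1.81 to 2.31 for Cox6a2 and 0.79 to 1.12 for Uqcrq. There it ranged over 0.75 to 1.02 for Atp5o and -2.43 to -1.67 for Cox7c.

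Signs turned in 20 cases; the cause was not tested. With the level as a term, mt-Atp6 (-0.030) and mt-Co3 (-0.14) in TBK1-WT control turned, as did mt-Co3 (-0.26), Cox7c (0.71), Atp5e (-0.00046), Cox7a2l (-0.19) and Ndufa4 (-0.050) in TBK1-WT IKKe knockout. Those of TBK1-cKD control were Cox7c (0.66), Ndufb4 (-0.11), Atp5g3 (-0.094), Cox7a1 (-0.20), Cox7a2l (-0.14) and Ndufa4 (-0.11), and in libraries labelled TBK1-cKD IKKe knockout it was Atp5e (-0.059). On libraries of high level mt-Atp6 (-0.027) and mt-Co3 (-0.33) in TBK1-WT control and Atp5e (-0.036) in libraries labelled TBK1-cKD IKKe knockout turned. With totals, mt-Cytb (-0.075) in TBK1-WT IKKe knockout, and mt-Nd1 (-0.14) and Uqcr10 (-0.095) in libraries labelled TBK1-cKD IKKe knockout, turned.

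Members near 1 CPM rest on few counts: Cox7c on 0 to 87 counts a library, Cox6a2 on 16 to 115 and Ndufs5 on 22 to 79. Cox7c shares 22.1% and Ndufs5 21.7% of windows with copies, while Cox6a2 shares 0%. Whether depth or shared sequence keeps the counts of Cox7c and Ndufs5 low was not tested.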
